A study of Homo sapiens with 8 samples.

Results

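The comparison described here is between M4 and M2, 2 human mammary epithelial lines that both descend from cells transfected with activated HRAS. It sets against each other 4 of the 8 RNA-seq libraries of the series, 2 of each line, chosen by their labels. All 8 libraries entered the fit from which the spread was estimated. M2 (MCF10AT1k.cl2) is a line of MCF10A cells carrying activated HRAS that was selected by xenografting and forms premalignant lesions in mice. M4 (MCF10CA1a.cl1) was established from a carcinoma that arose in xenografts of M2 cells, and it forms relatively undifferentiated carcinomas. The other lines of the series are M1, the immortalized MCF10A parent without the HRAS transfection, and M3 (MCF10CA1h), which like M4 came from a carcinoma of M2 xenografts. All lines were grown for 8 days as acini, rounded multicellular structures, in Matrigel, a basement membrane gel. The M2 medium contained EGF at 10 ng/ml, and the M3 and M4 media contained none. Each stage is represented by 1 line, so a difference between the lines and a difference between the media cannot be told apart.

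RAS proteins are membrane-bound GTPases that pass signals from receptor tyrosine kinases such as the EGF receptor (EGFR) to the RAF, MEK and ERK kinases, and ERK in turn raises the transcription of growth-factor ligands, of AP-1 factors and of the phosphatases and adaptors that damp the pathway. Activating HRAS mutations keep the protein in its GTP-bound state. Normal mammary epithelium has an inner luminal layer that expresses the simple keratins KRT8 and KRT18 and an outer basal layer that expresses KRT5, KRT14 and the transcription factor TP63.

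Total counts were 102160577 and 69669970 in the M2 libraries and 107350344 and 76071113 in the M4 libraries, and 18431 of the 56632 genes in the table passed the filter on low counts. The M2 libraries differed far less from each other than the M4 libraries did, with a biological coefficient of variation of 0.0580 in M2 and 0.271 in M4 (0.307 in M3 and 0.377 in M1), and with a chi-square per degree of freedom of 6.65 in M2 and 111 in M4. Nothing beyond the label of biological duplicates describes how the 2 cultures of a line were set up, so p-values measure the spread between these libraries. That spread was estimated over all 8 libraries, with those of M1 and M3 among them. One supplementary table of the study exchanges the libraries labelled M1 replicate 2 and M2 replicate 1, and the labels were followed here. M2 replicate 2 belongs to M2 under both assignments, and over the genes tested its Spearman correlation was 0.993 with M2 replicate 1 and 0.971 with M1 replicate 2. Results below are therefore also given without M2 replicate 1 or with these libraries exchanged for many of the calls and counts that depended on it. Where neither is given, a call or count may still depend on it. A result given without either library of a line held when one or the other was left out, not both at once.

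Transcript levels of M4 and M2 differed at 2567 of the 18431 genes (13.9%) at an adjusted p under 0.05 (edgeR quasi-likelihood test, Benjamini-Hochberg) and a fold change above 2, and such genes are called different below. Of these, 1287 (6.98% of the genes tested) were higher in M4 and 1280 (6.94%) were lower, and at an unadjusted p under 0.05 there were 6884 genes. The differences were often large: 660 genes were at least 4-fold higher and 663 at least 4-fold lower, and for 267 and 288 of these genes the difference was 16-fold or more. In the same model 765 genes (4.15%) were called between M3 and M2 and 1897 (10.3%) between M4 and M3. These comparisons share libraries, so each gene's values are set side by side below. An overlap between the comparisons was used only to find genes called in opposite directions in M4 and M3. Leaving out 1 library leaves its line with 1, so a call lost then need not depend on the library left out. The number of calls was 3101 with only M2 and M4 in the fit, and it fell when a library was left out. It was 927 without M2 replicate 1, 964 without M2 replicate 2, 1446 without M4 replicate 1 and 1665 without M4 replicate 2, and 1889 with M1 replicate 2 and M2 replicate 1 exchanged. As these are bulk samples, fewer cells of a type and less RNA per cell cannot be told apart.

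The counts by gene group are plotted first and each group is described after that, with the level in each library as CPM, the count scaled to the size of the library. Every group's count is to be read beside the 13.9% of all genes that were called.

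**Figure D1:**
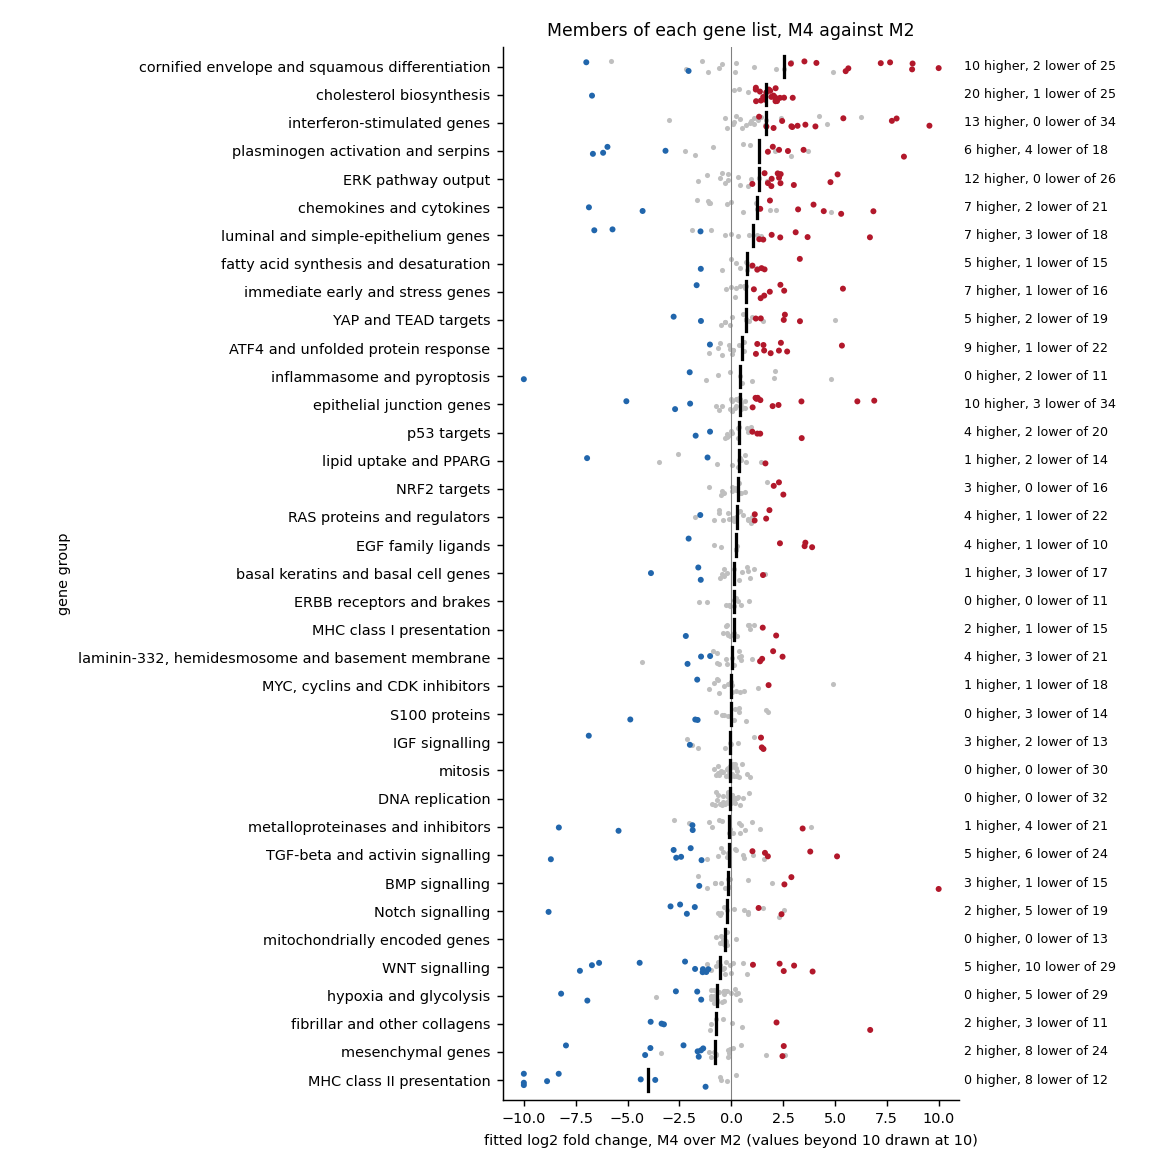
Fitted log2 fold change between M4 and M2 of each tested member (horizontal axis, values beyond 10 drawn at 10) by gene group (vertical axis), with members called higher in red, called lower in blue and not called in grey, a black bar at the group's median and the counts at the right. In cholesterol biosynthesis 20 of 25 members lie to the right as called, and in MHC class II presentation 8 of 12 lie to the left.

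HRAS itself (chr11:532242-537321, GRCh37) was read at 159.8 and 153.5 CPM in M2 and at 335.2 and 352.4 CPM in M4. Its level was 2.19-fold higher in M4, a log2 fold change of 1.13 ± 0.15 (SE) with an adjusted p of 0.00262, and the counts do not separate the transfected allele from the endogenous gene. In M3 the libraries were at 269.3 and 327.1 CPM, a log2 difference from M2 of 0.93 that did not pass 2-fold. Of the 22 RAS proteins and regulators tested, 4 were higher and 1 was lower in M4 (22.7% called, beside 13.9% of all genes). RASAL2 and RASA1, which stimulate GTP hydrolysis by RAS, were higher, with log2 fold changes of 1.84 and 1.13, and RASA4, of the same kind, was lower, with a log2 fold change of -1.49. The RASA4 call was lost without either M2 library or M4 replicate 1 (adjusted p = 0.0881 without M2 replicate 1), and 3 of the 22 were called without any 1 of these libraries. PDCD4 (chr10:112631553-112659764, GRCh37), a translation inhibitor and tumor suppressor on which the study turns, was at 155.5 and 159.1 CPM in M2 and at 51.0 and 58.8 CPM in M4. It was 2.87-fold lower, which is -1.52 ± 0.27 on the log2 scale (adjusted p = 0.00718; not called without M4 replicate 1). PDCD4-AS1, the antisense gene at its 5′ end, had 74 and 60 counts in M2 and 15 and 10 in M4, a log2 fold change of -2.58 ± 0.54 (adjusted p = 0.0143). This call was lost when any of the 4 libraries was left out (adjusted p = 0.0685 without M2 replicate 1). Whether the counting used strand is not given in the sources used here, so reads of PDCD4-AS1 and PDCD4 where the 2 genes overlap cannot be told apart.

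Several ligands of the EGF family differed between the lines, while no ERBB receptor tested was called by edgeR. Of the 10 tested, 4 were higher and 1 was lower in M4, against 13.9% of all genes called. HBEGF (chr5:139712428-139726188, GRCh37) was at 14.4 and 14.97 CPM in M2 and 218.2 and 219.8 CPM in M4, a 14.9-fold difference, or 3.90 ± 0.33 on the log2 scale (adjusted p = 0.00059). Its M3 libraries were at 23.4 and 41.9 CPM, not called against M2, and M4 was above M3 by 2.75 on the log2 scale (adjusted p = 0.003). EREG, the ligand epiregulin, was at 7.20 and 7.86 CPM in M2 and 79.2 and 100.1 CPM in M4, a difference of 3.57 ± 0.29 on the log2 scale, and M3 was at 47.8 and 87.6 CPM. The EREG call was lost with M1 replicate 2 and M2 replicate 1 exchanged (adjusted p = 0.0614). TGFA, with a log2 fold change of 2.35, and NRG1, with 3.54, were also higher in M4 and were called higher in M3 too. NRG4, a ligand of ERBB4, was lower, at 8.06 and 7.80 CPM in M2 and 1.90 and 1.92 CPM in M4 (log2 fold change -2.06 ± 0.36; adjusted p = 0.00738, and 0.0512 without M2 replicate 1; also lost without M4 replicate 1). AREG, the ligand amphiregulin, had a log2 fold change of -0.49 ± 0.51 and was not called. None of the 11 ERBB receptors and their brakes was called by edgeR, with 4 at an unadjusted p under 0.05. DESeq2 called 2 of them and limma 1, and 2 were called with M1 replicate 2 and M2 replicate 1 exchanged, when the group's median turned from 0.13 to -0.19, and 1 without M4 replicate 1 or with a replicate block. EGFR was at 223.5 and 220.0 CPM in M2 and 192.7 and 231.5 CPM in M4, where the libraries of the 2 lines overlapped.

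Among 26 genes that ERK signalling is known to raise, 12 were higher in M4 and none was lower, with a median log2 fold change of 1.32 beside -0.01 over all genes tested. DUSP5, a nuclear phosphatase that dephosphorylates ERK, was at 8.51 and 8.32 CPM in M2 and 59.4 and 76.9 CPM in M4, a log2 fold change of 3.02 ± 0.17 (adjusted p = 0.00023). The neutrophil chemokine CXCL8 was at 5.65 and 4.72 CPM in M2 and 227.5 and 135.2 CPM in M4, a log2 fold change of 5.13 ± 0.36 (adjusted p = 0.000336). LIF, a cytokine of the IL-6 family, had a log2 fold change of 4.78, the AP-1 subunit FOSL1 2.38, the receptor tyrosine kinase EPHA2 2.37 and the urokinase receptor PLAUR 1.77. In M3, CXCL8, LIF, FOSL1, DUSP5 and PLAUR were called higher than in M2 as well, and EPHA2 was not. Several of the best known output genes did not pass the test. DUSP6, the cytoplasmic ERK phosphatase, had a log2 fold change of 0.33 ± 0.38, EGR1 one of -0.15 ± 0.70, MYC one of -0.30 ± 0.19, and DUSP4 one of 1.75 ± 0.53 (adjusted p = 0.0526). The number called was 7 without M2 replicate 1 and 7 without M2 replicate 2, and 9 and 10 without M4 replicate 1 and M4 replicate 2. The calls of HBEGF, DUSP5, CXCL8, LIF, FOSL1 and EPHA2 held under all 15 alternatives tried. Here and below, 1 of the 15 only drops the minimum fold change, so no call could be lost under it.

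**Figure D2:**
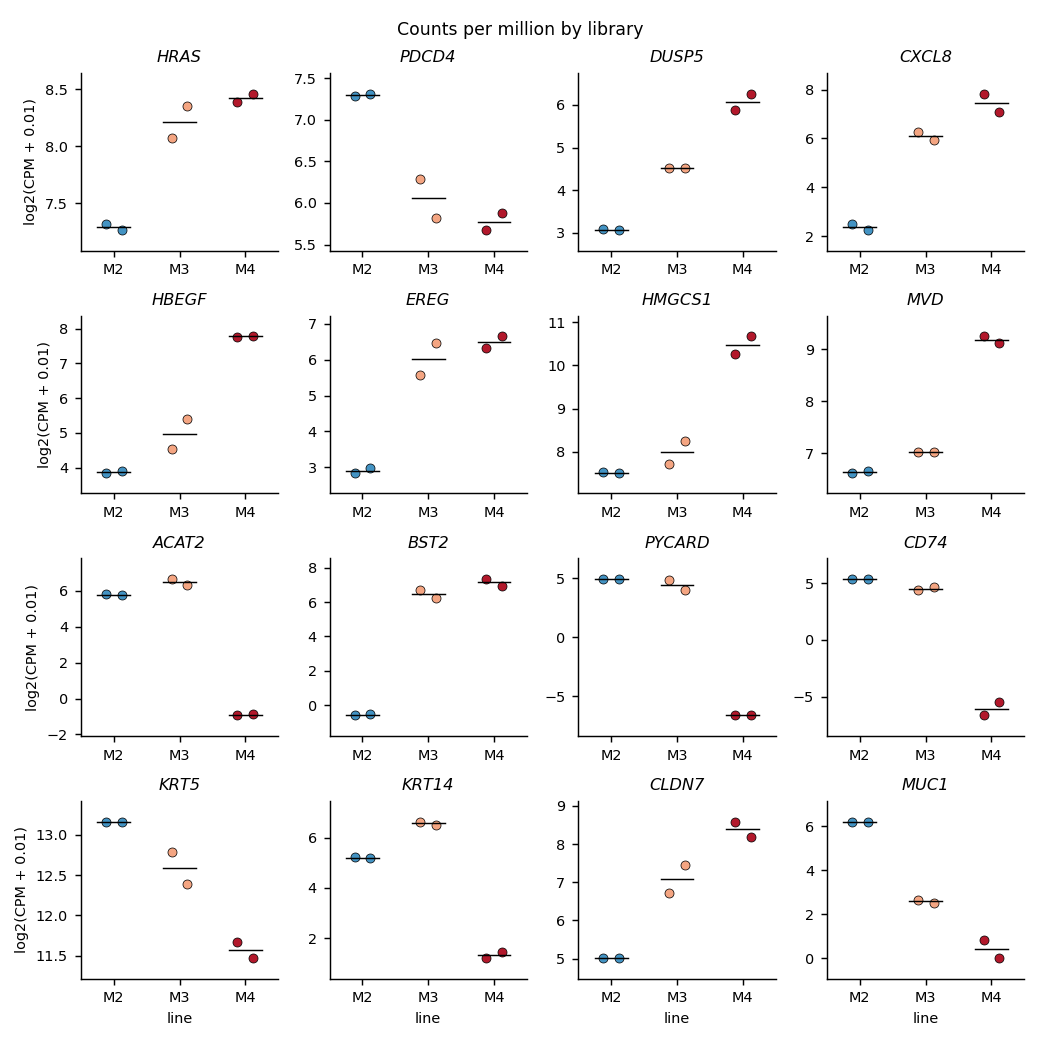
Level of named genes as log2(CPM + 0.01) (vertical axis, with its own scale in each panel) in the libraries of M2, M3 and M4 (horizontal axis), with 1 point for each library and a line at the mean of the log values. The M2 points lie almost on each other, the points of M2 and M4 are separate for every gene shown, and KRT14 is the gene shown whose M3 and M4 points lie on opposite sides of M2 with both comparisons called.

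Cholesterol biosynthesis was the group with the largest share of its tested members called (84.0%, against 13.9% of all genes). Of 25 genes tested, 20 were higher and 1 was lower in M4, and the median log2 fold change was 1.69. HMGCS1 (chr5:43287572-43313614, GRCh37), which makes HMG-CoA at the head of the pathway, was at 184.1 and 183.0 CPM in M2 and at 1232 and 1633 CPM in M4. Its log2 fold change was 2.96 ± 0.29 (adjusted p = 0.000981). Log2 fold changes of the same direction were found in the mevalonate part (MVD 2.55, FDPS 1.88), in the sterol part (TM7SF2 2.35, HSD17B7 2.14) and in INSIG1 (2.21), which retains the SREBP precursor in the endoplasmic reticulum. The INSIG1 call was lost without either M2 library (adjusted p = 0.0674 without M2 replicate 1), and those of HMGCS1 and ACAT2 held under all 15 alternatives. Summed over the group, the M2 libraries held 3632 and 3605 CPM and the M4 libraries 10600 and 12160 CPM.

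M3, which was also grown without EGF, was not at the M4 level for these genes. Of the 25 genes, 1 was called between M3 and M2 (HSD17B7, log2 fold change 1.11), and 21 were called between M4 and M3, 20 higher and 1 lower in M4. HMGCS1 was at 212.0 and 306.3 CPM in M3, and M4 was above M3 by 2.47 on the log2 scale (adjusted p = 0.00324). The member that was lower is ACAT2, the cytosolic thiolase that joins 2 acetyl-CoA units. It was at 57.4 and 54.1 CPM in M2, 102.1 and 81.0 CPM in M3, and 0.511 and 0.551 CPM in M4, a log2 fold change between M4 and M2 of -6.71 ± 0.37 (adjusted p = 0.00023). SREBF2, which encodes the transcription factor of the pathway, had a log2 fold change of 0.37 ± 0.14 and was not called, and MVK (1.13 ± 0.34, adjusted p = 0.0505), GGPS1 (0.82 ± 0.14, under 2-fold) and PMVK (0.11 ± 0.14) were not either. Without M2 replicate 1 the number called was 11, without M2 replicate 2 it was 13, and without M4 replicate 1 or M4 replicate 2 it was 20 or 18. It was 22 with M1 replicate 2 and M2 replicate 1 exchanged. Of 15 genes of fatty acid synthesis and desaturation, 5 were higher and 1 was lower. ACSS2, which makes acetyl-CoA from acetate, was at 53.2 and 57.4 CPM in M2 and 598.0 and 495.5 CPM in M4 (log2 fold change 3.31 ± 0.20), and ACLY, which makes it from citrate, had a log2 fold change of 1.46. The one lower was SREBF1, the transcription factor of fatty acid synthesis, at 361.8 and 363.4 CPM in M2 and 152.4 and 109.8 CPM in M4. FASN (0.89 ± 0.48) and SCD (0.72 ± 0.28) were not called. ACACA, also on the list, could not be matched to a gene in the counts and was not tested. Without M2 replicate 1 and M2 replicate 2, 2 and 3 genes of this group were called, ACLY not among them (adjusted p = 0.0633 without M2 replicate 1). The sterol regulatory element core TCACNCCAC, searched on both strands of the RefSeq promoter windows described below, was found for SREBF2 and for no other of the 19 members with a window, against 1.39% of all genes. Of the 21 called members, 15 had a window. Elements outside the windows or with other letters would be missed, so no match does not show that a gene lacks such an element.

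**Figure D3:**
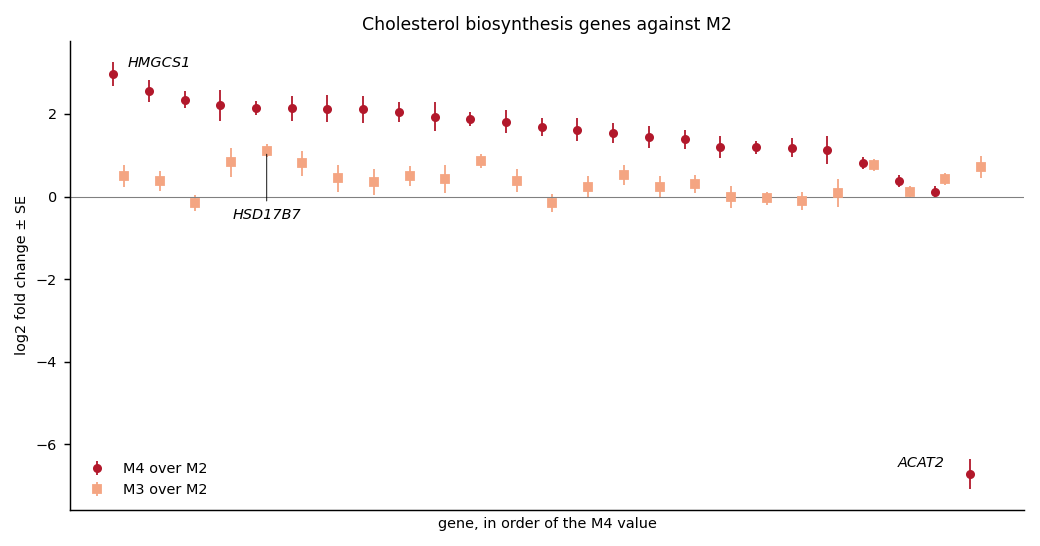
Log2 fold change against M2 (vertical axis, with bars of 1 SE) of each cholesterol biosynthesis gene (horizontal axis, in order of the M4 value), as circles for M4 and squares for M3. The M4 values run down from 2.96 for HMGCS1 and lie above 0 apart from ACAT2 at -6.71, while the highest M3 value is 1.11, for HSD17B7.

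Interferon-stimulated genes, which infected or interferon-treated cells switch on, were higher in M4 at 13 of the 34 tested and lower at none, with a median log2 fold change of 1.66 (1.60 with the 1 gene at 0 in M2 set to its lower bound). Much of this group stood apart in 1 library: all 34 members were higher in M4 replicate 1 than in M4 replicate 2, by 2.66-fold at the median, while over all genes 9306 of 18431 were higher. Without M4 replicate 1 the median was 0.40 and 6 members were called, and without M4 replicate 2 they were 2.26 and 22. Without M2 replicate 1 or M2 replicate 2, 3 members were called. BST2 (chr19:17513748-17516439, GRCh37), which tethers enveloped virus particles at the cell surface, did not depend on a single library. It was at 0.648 and 0.697 CPM in M2 and 163.4 and 124.9 CPM in M4, a 214-fold difference, or 7.75 ± 0.52 on the log2 scale (adjusted p = 0.000324), and M3 was at 105.1 and 75.8 CPM. DTX3L, an E3 ubiquitin ligase that works with PARP9, was at 34.2 and 35.8 CPM in M2 and 101.1 and 76.3 CPM in M4 (log2 fold change 1.34 ± 0.16), and it was called under all 15 alternatives, as was BST2. By contrast, ISG15, the ubiquitin-like modifier, was at 4.28 and 4.41 CPM in M2 and at 59.8 and 6.995 CPM in M4. Its call was lost with M1 replicate 2 and M2 replicate 1 exchanged (adjusted p = 0.0519, edgeR), when 9 members were called. IFI27 was at 0.0196 and 0.185 CPM in M2 and at 45.7 and 1.87 CPM in M4, and IRF7, the transcription factor, at 3.48 and 2.37 CPM in M2 and 40.8 and 12.9 CPM in M4. The calls of ISG15 and IFI27 were lost without M4 replicate 1 and without either M2 library, and that of IRF7 without either M2 library (adjusted p = 0.243, 0.161 and 0.0608 without M2 replicate 1).

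**Figure D4:**
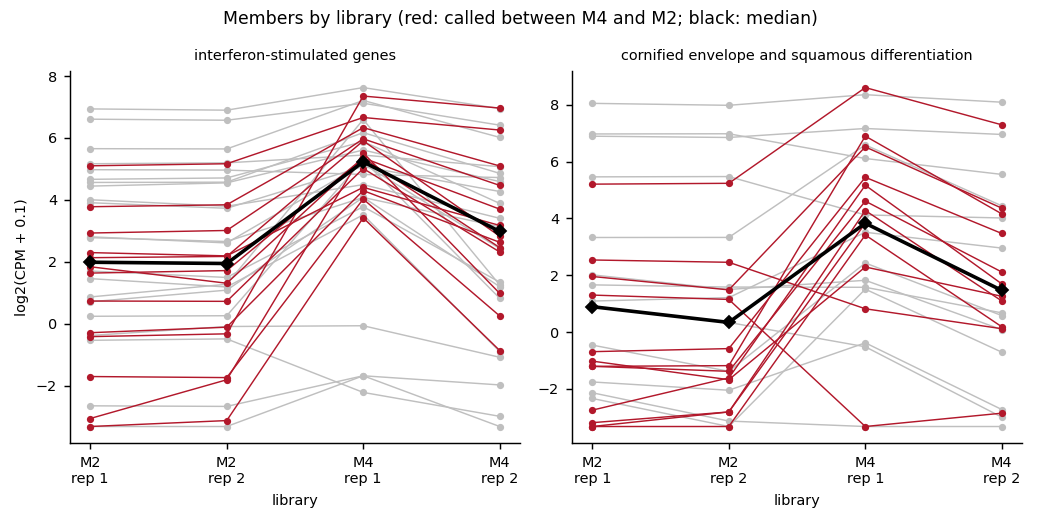
Level as log2(CPM + 0.1) (vertical axis) in each M2 and M4 library (horizontal axis) of the tested interferon-stimulated genes and of the cornified envelope genes described further on, with 1 line for each gene, red where it was called, and the median in black. The medians of both groups peak in M4 replicate 1, where all 34 interferon-stimulated genes are above their level in M4 replicate 2.

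Interferon acts on most of these genes through the interferon-stimulated response element, whose core GAAANNGAAA was searched on both strands of the RefSeq promoter windows (GRCh38.p14), from 250 bases before to 50 bases after each gene start. It was found for 1192 of 27195 genes (4.38%). Of the 34 members tested, 26 had a window and 19 of these held the core, 7 of the 9 called members with a window and 12 of the 17 others. The windows of BST2, the member with the smallest adjusted p, of DTX3L, called under every alternative, and of ISG20, an RNA exonuclease at 7.51 and 7.96 CPM in M2 and 62.7 and 22.01 CPM in M4 (adjusted p = 0.0181, and 0.138 without M2 replicate 1, with the call also lost without M2 replicate 2 or M4 replicate 1), are printed below from 5′ to 3′ on the strand of the gene, with the core in capitals. They lie at chr19:17405581-17405880 on the minus strand, chr3:122564088-122564387 on the plus strand and chr15:88638766-88639065 on the plus strand. BST2 has 2 overlapping matches that start 130 and 124 bases before the gene start, ISG20 has 1 that starts 69 bases before it, and the match in DTX3L overlaps the gene start. A match describes the letters and does not show that a factor binds there.
BST2: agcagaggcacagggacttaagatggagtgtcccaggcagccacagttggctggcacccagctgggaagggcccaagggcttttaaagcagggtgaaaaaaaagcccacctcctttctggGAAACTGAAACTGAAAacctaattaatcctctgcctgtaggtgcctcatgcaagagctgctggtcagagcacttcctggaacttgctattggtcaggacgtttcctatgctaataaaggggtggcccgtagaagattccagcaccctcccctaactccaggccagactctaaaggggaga
DTX3L: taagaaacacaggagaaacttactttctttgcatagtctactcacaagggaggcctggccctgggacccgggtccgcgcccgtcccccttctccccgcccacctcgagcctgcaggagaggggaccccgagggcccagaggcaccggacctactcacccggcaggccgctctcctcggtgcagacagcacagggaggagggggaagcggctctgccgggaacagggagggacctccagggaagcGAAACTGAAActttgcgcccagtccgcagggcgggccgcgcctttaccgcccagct
ISG20: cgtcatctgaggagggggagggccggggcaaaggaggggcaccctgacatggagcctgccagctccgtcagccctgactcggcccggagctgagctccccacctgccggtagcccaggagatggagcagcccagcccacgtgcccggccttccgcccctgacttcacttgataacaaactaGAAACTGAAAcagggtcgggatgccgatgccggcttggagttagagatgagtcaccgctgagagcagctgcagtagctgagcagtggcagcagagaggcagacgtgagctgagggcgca

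Genes of antigen presentation by MHC class II were lower in M4 at 8 of the 12 tested and higher at none, with a median log2 fold change of -4.02 (-3.74 with the 4 genes at 0 in M4 set to their bounds). CD74, the invariant chain that guides class II molecules, had 4199 and 2878 counts in M2 and 0 and 1 in M4, a ratio of 6412 with a 95% counting interval from 1413 to 311000. In M3 CD74 had 1619 and 2175 counts, a log2 fold change against M2 of -0.85 that was not called. HLA-DRA, the class II alpha chain, had 659 and 431 counts in M2, 53 and 66 in M3, and 0 in both M4 libraries, so its level was at least 194-fold lower in M4. CIITA, the transactivator on which class II transcription depends, was at 2.92 and 2.56 CPM in M2 and at 0.212 and 0.218 CPM in M4, a log2 difference of -3.67 ± 0.75, and M3 was lower by a similar amount (-3.63, called). The calls of CD74, HLA-DRA and CIITA were lost when any 1 of the 4 libraries was left out, with adjusted p-values of 0.0526, 0.0628 and 0.0639 without M2 replicate 1. Over the list, 2, 3, 1 and 3 genes were called without M2 replicate 1, M2 replicate 2, M4 replicate 1 and M4 replicate 2. RFX5, a subunit of the factor that binds class II promoters, was lower by 1.24 on the log2 scale. Of 15 genes of class I presentation, 2 were higher and 1 was lower (3 of 15 called, beside 13.9% of all genes). HLA-F and HLA-B had log2 fold changes of 2.17 and 1.52, and HLA-C, at 216.6 and 205.0 CPM in M2 and 57.4 and 35.0 CPM in M4, one of -2.19 ± 0.23. The HLA-B call was lost without either M2 library or M4 replicate 1 (adjusted p = 0.113 without M2 replicate 1), and the number called in this group was 2 without any 1 of these libraries and 5 without M4 replicate 2 or with M1 replicate 2 and M2 replicate 1 exchanged. HLA genes are similar in sequence and vary between people, so reads may have been divided among them and these values are uncertain.

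Of 11 inflammasome and pyroptosis genes, 2 were called, both lower, a share of 18.2% beside 13.9% of all genes, and the fitted values of the 11 were higher at 6 and lower at 5. PYCARD, the adaptor ASC that assembles inflammasomes, had 3105 and 2183 counts in M2, 2342 and 1382 in M3, and 0 in both M4 libraries, which is at least 948-fold lower in M4, and this call held under all 15 alternatives. CASP1, the caspase it activates, was at 119.7 and 121.0 CPM in M2 and at 39.4 and 20.6 CPM in M4 (4.01-fold lower; adjusted p = 0.0438). The CASP1 call was lost when any single library was left out (adjusted p = 0.179 without M2 replicate 1), which left 1 of the 11 called. IL1B, a cytokine that caspase-1 cleaves to its active form, went the other way, at 0.540 CPM in both M2 libraries and at 91.7 and 33.6 CPM in M4, a log2 fold change of 6.85 ± 0.62 (adjusted p = 0.000816). It belongs to the 21 chemokines and cytokines tested, of which 7 were higher and 2 were lower. IL1A (3.97), IL24 (5.30) and the receptor antagonist IL1RN (3.22) were higher on the log2 scale, and IL33 (-4.27) and the membrane-bound chemokine CX3CL1 (82 and 51 counts in M2, 1 and 0 in M4) were lower. Without M2 replicate 1 the adjusted p was 0.115 for IL1A, 0.123 for IL1RN and 0.0777 for CX3CL1, none of them called without M2 replicate 2 either, nor IL1RN and CX3CL1 without M4 replicate 1 or CX3CL1 without M4 replicate 2. The number called in that group was 3 and 4 without M2 replicate 1 and M2 replicate 2, and 6 and 8 without M4 replicate 1 and M4 replicate 2.

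The epithelial identity of the lines was checked against defining markers. KRT5, KRT8, KRT18 and TP63 were present in every library of both lines. KRT19 and ESR1, markers of mature luminal cells, were at most 1.72 CPM on average in either line, and PGR was at 0 in M2 and had 20 and 9 counts in M4. The leukocyte markers PTPRC and CD3E and the adipocyte markers ADIPOQ and LEP had no count in any of these libraries, nor had the fibroblast collagen COL1A2 and the fibroblast gene LUM. Of the 4 fibroblast markers tested, 2 were lower in M4, among them DCN, which encodes the proteoglycan decorin, at 60.2 and 58.6 CPM in M2 and 0.167 and 0.0128 CPM in M4 (adjusted p = 0.0097, and 0.0588 without M2 replicate 1). Neither of the 2 was called when any 1 of the 4 libraries was left out. COL1A1 had a log2 fold change of -1.01 ± 0.54 and was not called. None of the 5 endothelial, immune and adipocyte markers tested was called by edgeR, but 4 had an unadjusted p under 0.05, DESeq2 and limma each called 3, and 1 was called with M1 replicate 2 and M2 replicate 1 exchanged and 1 with a replicate block. The most abundant of them were CSF1R, the receptor of a macrophage growth factor, at 4.32 and 3.995 CPM in M2 and 20.01 and 24.6 CPM in M4 (adjusted p = 0.0708, edgeR), and the monocyte marker CD14, at 4.54 and 4.55 CPM in M2 and 2.03 and 1.06 CPM in M4 (adjusted p = 0.0562).

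Basal and luminal genes did not differ in 1 direction as groups. Of 17 basal genes, 3 were lower in M4 and 1 was higher (23.5% called, beside 13.9% of all genes), with a median log2 fold change of 0.14. KRT5, the major basal keratin, was at 9179 and 9190 CPM in M2 and at 3268 and 2837 CPM in M4 (log2 fold change -1.59 ± 0.24; adjusted p = 0.00418). TP63, which maintains basal cells, was at 105.1 and 105.4 CPM in M2 and at 36.2 and 39.8 CPM in M4 (-1.47 ± 0.17; adjusted p = 0.00178). KRT14 (chr17:39738531-39743147, GRCh37), the partner of KRT5, was at 37.3 and 36.3 CPM in M2, 99.7 and 91.1 CPM in M3 and 2.30 and 2.74 CPM in M4. It was therefore lower in M4 than in M2 by 3.87 on the log2 scale, with an SE of 0.35, and higher in M3 than in M2, by 1.37. The calls of KRT5, TP63 and KRT14 between M4 and M2 held under all 15 alternatives. Without M2 replicate 1, 3 basal genes were called and without M4 replicate 1, 4.

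Of 18 luminal and simple-epithelium genes, 7 were higher and 3 were lower, with a median log2 fold change of 1.05. KRT7, a simple keratin, was at 940.1 and 920.6 CPM in M2 and at 4335 and 2851 CPM in M4, a log2 difference of 1.95 ± 0.37 that was not called without either M2 library or M4 replicate 1 (adjusted p = 0.0835 without M2 replicate 1). KRT18 had a log2 fold change of 1.54, EPCAM 1.35, the pioneer factor FOXA1 2.36 and CLDN4 3.11, while KRT8 stayed under 2-fold at 0.86 ± 0.25. Both MUC1 and GATA3 were among those lower. MUC1, the transmembrane mucin of the luminal surface, was at 74.7 and 74.0 CPM in M2 and at 1.78 and 0.999 CPM in M4 (log2 fold change -5.72 ± 0.38; adjusted p = 0.000307), and M3 was at 6.35 and 5.80 CPM. GATA3, a transcription factor of luminal cells, had a log2 fold change of -1.48 ± 0.17. Without either M2 library 6 of these genes were called, and 8 and 9 without M4 replicate 1 and M4 replicate 2. FOXA1 and EPCAM were not called without either M2 library (adjusted p = 0.0566 and 0.0836 without M2 replicate 1), EPCAM also not without M4 replicate 2, and FOXA1 not with M1 replicate 2 and M2 replicate 1 exchanged.

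Genes of the cornified envelope and squamous differentiation were higher at 10 and lower at 2 of 25 tested, with a median log2 fold change of 2.56. As with the interferon-stimulated genes, 23 of the 25 were higher in M4 replicate 1 than in M4 replicate 2, by 3.61-fold at the median. SPRR1A, a cross-linked envelope precursor, was at 0.334 and 0.341 CPM in M2 and at 119.0 and 17.8 CPM in M4 (log2 fold change 7.66 ± 1.24; adjusted p = 0.00642, and 0.0878 without M2 replicate 1). SPRR genes are a family of close copies, so their values are uncertain. KLK5, a protease of the stratum corneum, was at 36.8 and 37.6 CPM in M2 and at 388.8 and 156.7 CPM in M4, and KLK7 and CALML3 were lower. The KLK7 call was lost with M1 replicate 2 and M2 replicate 1 exchanged (adjusted p = 0.0694, edgeR). Neither SPRR1A nor KLK5 was called without M2 replicate 2, and KLK7 and CALML3 were not called when any library was left out (adjusted p = 0.137 for each, and 0.0836 for KLK5, without M2 replicate 1). The group's count was 0 without M2 replicate 1, 1 without M2 replicate 2 and 8 without either M4 library, and its median was 1.73 without M4 replicate 1 and 3.35 without M4 replicate 2.

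Genes of epithelial junctions differed in both directions. Of 34 tested, 10 were higher and 3 were lower. OCLN, the tight junction protein occludin, was at 0.481 and 0.611 CPM in M2, 3.02 and 2.63 CPM in M3 and 40.1 and 33.5 CPM in M4. It was 67.6-fold higher in M4 than in M2 (log2 fold change 6.08 ± 0.31; adjusted p = 0.00023, and 0.0796 with M1 replicate 2 and M2 replicate 1 exchanged). CLDN7, a claudin of epithelial tight junctions, was at 32.5 and 32.3 CPM in M2 and at 385.6 and 290.4 CPM in M4 (3.38 ± 0.27), whereas CLDN8 was lower by 5.06 on the log2 scale. CDH1, which encodes E-cadherin, was at 159.3 and 155.7 CPM in M2 and at 222.0 and 210.7 CPM in M4 and was not called. The group's count was 4 and 3 without M2 replicate 1 and M2 replicate 2, 4 and 6 without M4 replicate 1 and M4 replicate 2, and 7 with the 2 libraries exchanged.

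Mesenchymal genes were lower in M4 at 8 of 24 and higher at 2. The matrix protease MMP2 (-3.90), the collagen cross-linking oxidase LOX (-1.57), the receptor tyrosine kinase AXL (-1.46) and the transcription factors TWIST1 (-1.35) and TWIST2 (-4.15) were lower on the log2 scale, and NT5E, the ectonucleotidase CD73 (2.53), and SNAI1 (2.47) were higher. MMP2, LOX, AXL, TWIST1 and SNAI1 were not called without either M2 library (adjusted p = 0.0859, 0.111, 0.128, 0.134 and 0.121 without M2 replicate 1), MMP2, LOX, AXL and TWIST1 also not without M4 replicate 1, and LOX, TWIST1 and SNAI1 not without M4 replicate 2. NT5E, LOX, AXL and TWIST1 were not called with M1 replicate 2 and M2 replicate 1 exchanged (adjusted p = 0.0843, 0.196, 0.0542 and 0.0904, edgeR). VIM, the intermediate filament vimentin, was at 847.7 and 839.3 CPM in M2 and at 572.6 and 451.1 CPM in M4 and was not called, nor was CDH2, which encodes N-cadherin. The number called was 4, 3, 4 and 6 without M2 replicate 1, M2 replicate 2, M4 replicate 1 and M4 replicate 2, and 5 with M1 replicate 2 and M2 replicate 1 exchanged.

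Of 21 genes of laminin-332, hemidesmosomes and the basement membrane, 4 were higher and 3 were lower. LAMB3 and LAMA3, which encode chains of laminin-332, the protein that anchors epithelial cells to the basement membrane, were higher in M4. LAMB3 was at 279.7 and 284.2 CPM in M2 and at 1574 and 1558 CPM in M4 (log2 fold change 2.47 ± 0.26; adjusted p = 0.00117), and LAMA3 had a log2 fold change of 1.49. Both were called higher in M3 than in M2 as well. LAMA3 was not called without either M2 library (adjusted p = 0.0501 without M2 replicate 1), nor with M1 replicate 2 and M2 replicate 1 exchanged (adjusted p = 0.0608). Over the group 4 genes were called under that exchange, 4 without either M2 library or M4 replicate 2, and 5 without M4 replicate 1. TGF-beta and activin signalling, whose ligands act through SMAD2 and SMAD3, held 5 genes that were higher and 6 that were lower of 24. INHBA, the activin A subunit, was at 19.01 and 19.46 CPM in M2 and at 237.7 and 301.5 CPM in M4 (3.81 ± 0.24; adjusted p = 0.000264), and the activin-binding FST had a log2 fold change of 5.10, not called without either M2 library or M4 replicate 1 (adjusted p = 0.161 without M2 replicate 1). TGFB1, the founding ligand, was at 94.15 and 95.97 CPM in M2 and at 16.8 and 13.4 CPM in M4 (-2.65 ± 0.21; adjusted p = 0.000494). The calls of LAMB3, INHBA and TGFB1 held under all 15 alternatives, while the count for TGF-beta and activin signalling was 4 without either M2 library, 5 and 6 without M4 replicate 1 and M4 replicate 2, and 6 with the 2 libraries exchanged. Of 18 genes of plasminogen activation and serpins, 6 were higher and 4 were lower. PLAU, the urokinase, was at 42.3 and 40.0 CPM in M2 and at 216.7 and 190.0 CPM in M4, and SERPINB2, its inhibitor, at 0.157 and 0.185 CPM in M2 and 76.4 and 33.3 CPM in M4 (8.33 ± 1.20; adjusted p = 0.00433, and 0.072 without M2 replicate 1). PLAU and SERPINB2 were not called without either M2 library (adjusted p = 0.0816 for PLAU without M2 replicate 1), when the group's count was 3, and it was 7 without M4 replicate 1.

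Of 29 WNT signalling genes, 5 were higher and 10 were lower in M4. The antagonist DKK1 (3.03) and the ligand WNT9A (3.92) were higher on the log2 scale, and WNT10A (-4.42) and the antagonist SFRP1 (-1.36) were lower. With M1 replicate 2 and M2 replicate 1 exchanged, SFRP1 was not called (adjusted p = 0.068, edgeR). DKK1 and SFRP1 were not called when any library was left out (adjusted p = 0.138 and 0.0558 without M2 replicate 1). The WNT count was 4 without either M2 library, 5 without either M4 library and 10 with M1 replicate 2 and M2 replicate 1 exchanged. Of 29 hypoxia and glycolysis genes 5 were called, all lower, a share of 17.2% beside 13.9% of all genes. GPI, which interconverts the hexose phosphates, was at 1255 and 1259 CPM in M2 and at 396.3 and 410.0 CPM in M4. The glucose transporter SLC2A3 had 263 and 207 counts in M2 and 2 in each M4 library. CA9, a carbonic anhydrase that HIF-1 induces, was at 131.6 and 133.3 CPM in M2, 175.0 and 22.2 CPM in M3 and 0.599 and 0.269 CPM in M4 (log2 fold change -8.20 ± 1.82; adjusted p = 0.0197), a call lost when any library was left out (adjusted p = 0.0923 without M2 replicate 1). With M1 replicate 2 and M2 replicate 1 exchanged, GPI and CA9 were not called (adjusted p = 0.0573 and 0.0565) and the group's count was 2, as it was without either M2 library, and it was 3 without M4 replicate 1. CD36, the fatty acid translocase, was at 42.8 and 41.1 CPM in M2, 1.05 and 0.276 CPM in M3 and 0.0969 and 0.628 CPM in M4.

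Among stress-response groups, more genes were called higher than lower in M4. Of 22 genes of the ATF4 and unfolded protein responses, 9 were higher and 1 was lower. CHAC1, which degrades glutathione, was at 0.462 and 0.128 CPM in M2 and at 17.7 and 6.87 CPM in M4 (log2 fold change 5.34 ± 0.78; adjusted p = 0.00387), and DDIT3 (2.39), TRIB3 (1.90), XBP1 (1.55) and the chaperone HSPA5 (1.19) were also higher on the log2 scale. Of 16 immediate early and stress genes, 7 were higher and 1 was lower. ATF3 was at 1.72 and 1.65 CPM in M2 and at 83.1 and 57.8 CPM in M4 (5.38 ± 0.44; adjusted p = 0.000562), and FOS, the one lower, had a log2 fold change of -1.67, not called when any library was left out (adjusted p = 0.178 without M2 replicate 1). The count in this group was 3 without either M2 library and 5 without M4 replicate 1. FOS and HSPA5 were not called with M1 replicate 2 and M2 replicate 1 exchanged (adjusted p = 0.224 and 0.0796, edgeR). Among 20 p53 targets, 4 were higher and 2 were lower. GDF15 was at 14.9 and 15.4 CPM in M2 and at 163.3 and 156.2 CPM in M4 and MDM2 had a log2 fold change of 1.40, but CDKN1A, the cell-cycle inhibitor p21, was lower, at 347.3 and 342.2 CPM in M2 and 115.7 and 94.2 CPM in M4 (-1.72 ± 0.19; adjusted p = 0.00154). HSPA5 was not called when any library was left out (adjusted p = 0.179 without M2 replicate 1). The ATF4 count was 6 without either M2 library, and 8 and 7 without M4 replicate 1 and M4 replicate 2.

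Genes of proliferation were not called with all libraries in the fit. None of 32 DNA replication genes and none of 30 mitosis genes passed the test by edgeR, DESeq2 or limma, and 12 and 10 had an unadjusted p under 0.05 by edgeR, with median log2 fold changes of -0.07 and -0.06 and with values from -0.92 to 0.90 over both groups. With M1 replicate 2 and M2 replicate 1 exchanged the medians turned to 0.32 and 0.54, again with no call, and without M4 replicate 1 they were 0.02 and 0.11. Without M4 replicate 2, 1 mitosis gene was called. MKI67, the proliferation antigen, was at 236.5 and 221.2 CPM in M2 and at 311.2 and 540.9 CPM in M4 (0.90 ± 0.37; adjusted p = 0.119). The 13 mitochondrially encoded genes were not called either by any of the 3 tools (3 at an unadjusted p under 0.05), with a median log2 fold change of -0.32.

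Some genes were read in 1 line and not in the other. There were 13 protein-coding genes at 0 in both M2 libraries with at least 100 counts in each M4 library, and 9 genes with the reverse pattern, 8 of them protein coding. A gene at 0 was compared against a floor of 3 counts per library. The non-muscle myosin heavy chain MYH14 had 3875 and 1998 counts in M4, at least 829-fold more than in M2, but the call was lost without M2 replicate 1 (adjusted p = 0.113), without M2 replicate 2 or M4 replicate 1, and with M1 replicate 2 and M2 replicate 1 exchanged, M1 replicate 2 having 11 counts. PRSS21, a GPI-anchored serine protease of the testis, had 3195 and 1962 counts in M4 and 4467 and 3659 in M3, and was at least 739-fold higher in M4. CEACAM5, the carcinoembryonic antigen, had 1930 and 377 counts in M4 and 12 and 4 in M3, and was at least 303-fold higher. BMP7, a bone morphogenetic protein, had 397 and 518 counts in M4 and 647 and 1045 in M3. DEFB103B, a beta-defensin gene with a near-identical copy, had 983 and 150 counts in M4, and its values are uncertain. Among genes at 0 in M4, MYADM, a membrane protein of the myeloid lineage, had 729 and 465 counts in M2 and was at least 212-fold lower, and the zinc finger gene ZNF606, with 201 and 138 counts in M2, was at 0 in M3 as well. Of abundant genes, SQSTM1, which encodes the autophagy receptor p62, was at 311.6 and 311.4 CPM in M2 and at 2190 and 2093 CPM in M4 (log2 fold change 2.78 ± 0.26; adjusted p = 0.000741).

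Genes that are not protein coding were called at 391 of 4343 tested, 205 higher and 186 lower in M4, and at 105 of the 1176 antisense lncRNAs that overlap a coding gene. The share of the 4343 that was called, 9.0% with the genes of unknown class included, stood beside 15.5% of the protein-coding genes. LINC00520 had 0 and 2 counts in M2 and 1420 and 370 in M4, a ratio of 607 with a counting interval from 222 to 6648. UCA1, named for urothelial carcinoma, had 0 and 4 counts in M2 and 1218 and 407 in M4, and its call was lost when any library was left out (adjusted p = 0.25 without M2 replicate 1) and with M1 replicate 2 and M2 replicate 1 exchanged. The imprinted H19 was at 10.8 and 10.9 CPM in M2, 23.03 and 12.25 CPM in M3 and 0.0529 and 0.243 CPM in M4 (log2 fold change -6.27 ± 0.65; adjusted p = 0.00116), and it was called under all 15 alternatives. LINC01806 had 466 and 273 counts in M2 and 0 in both M4 libraries. HOTAIR was lower by 1.44 on the log2 scale, not called when any library was left out (adjusted p = 0.133 without M2 replicate 1), and the nuclear paraspeckle RNA NEAT1, at 101.9 and 105.5 CPM in M2 and 336.9 and 103.1 CPM in M4, was not called.

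The differences were not spread evenly over the chromosomes. On chromosome 3 the median log2 fold change of the 961 genes tested was 0.33, with 122 called higher and 45 lower, and on chromosome 19 it was -0.24 over 1179 genes, with 73 higher and 146 lower. The medians of the other chromosomes ran from -0.13 on chromosome X to 0.12 on chromosome 10. In windows of 10 Mb, the 12 windows of chromosome 3 from 70 to 200 Mb with enough genes had medians from 0.39 to 0.84, and M4 differed from M3 there by -0.23 to 0.27. Chromosome 3 was also shifted between M3 and M2, by 0.27. On chromosome 19 the 3 windows from 30 to 60 Mb had medians of -0.545, -0.575 and -0.484, where M3 differed from M2 by -0.25 to -0.10. Single windows of other chromosomes also stood away from 0. Their medians were -0.847 on chromosome 9 (32 genes), -0.579 on chromosome 12 (71 genes) and 0.804 on chromosome 21 (18 genes). The ribosomal protein gene RPL13A, among the most abundant genes called lower, lies on chromosome 19, with a log2 fold change of -1.27, and lost the call when any library was left out (adjusted p = 0.0943 without M2 replicate 1). Over the alternatives the median stayed between 0.30 and 0.38 for chromosome 3 and between -0.35 and -0.19 for chromosome 19. Copy number was not measured, and its part in these shifts was not tested.

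**Figure D5:**
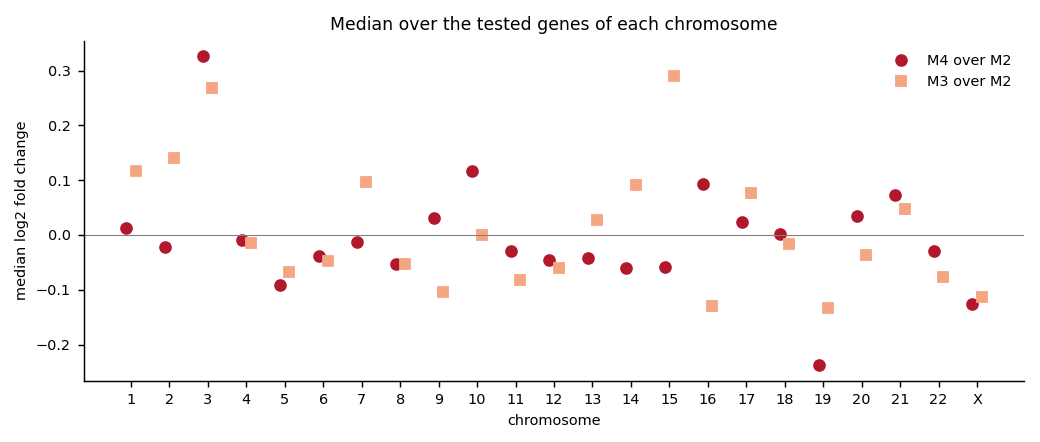
Median log2 fold change against M2 (vertical axis) over the tested genes of each chromosome (horizontal axis), as circles for M4 and squares for M3. For M4, chromosome 3 at 0.33 and chromosome 19 at -0.24 lie farthest from 0.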

How the data were processed

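Poly A+ RNA of M1, M2, M3 and M4 cells, 2 libraries of each line, was read by paired-end sequencing. The authors trimmed reads with Trimmomatic, aligned them with STAR to hg19 (GRCh37) and estimated expected counts per gene with RSEM on GENCODE v19, and the table of these estimated counts was deposited without normalization. Tool versions and the use of strand in counting are not given in the sources used here. Of the values, 12.8% were not whole, and all were rounded to whole numbers. Columns of samples outside the series numbered 0. Groups came from the sample labels. Gene classes and GRCh37 coordinates came from GENCODE 44, which held 94.7% of the genes that had any count. Genes it did not hold have no known class and were counted with those that are not protein coding.

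Total counts ran from 69669970 to 107350344. Counting intervals and floors cover counting error only, at a level of 95% and with a floor of 3 counts. All 8 libraries were fitted with edgeR 4.0.16 in R 4.3.3 (TMM scaling, filterByExpr, robust quasi-likelihood F test, 1 coefficient per line), and p-values were adjusted by Benjamini and Hochberg over 18431 genes. Calls needed an adjusted p under 0.05 together with a log2 fold change beyond 1 in either direction. Standard errors are those implied by the F statistic, and CPM were scaled by the TMM library sizes. The procedure was tested on simulated counts that had the same spread per gene in every line. The M2 libraries varied far less than the others, so that test does not cover the unequal spread of these data. Alternatives used limma 3.58.1, DESeq2 1.42.0, other scalings and filters, a replicate block, other thresholds, the exchange of M1 replicate 2 and M2 replicate 1 found in a supplementary table, and the omission of each library.

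Named genes were those with the largest and the most abundant differences among called protein-coding genes (100 counts or more in both libraries of the line where the gene is higher), the largest among other genes except pseudogenes, up to 4 called members of each gene list with the smallest adjusted p together with the members a list is built on, and HRAS, PDCD4 and PDCD4-AS1. Other members, such as EGR1, DUSP6, VIM, CDH1, CDH2, FASN, SCD, ISG15, IFI27 and ISG20, were named as well-known ones after their values had been seen. The comparison and the gene lists were chosen with earlier results of these data known. Of 811 list members, 804 were found among the genes counted. The others, such as ACACA, CCL5, SRXN1 and PECAM1, could not be matched and are in no count. No set test was run. Replicate numbers were not taken to pair the libraries, and a replicate block was tried. Promoter windows came from RefSeq (GRCh38.p14), a build other than that of the counts. XIST and Y-linked genes were left out, and a few other genes are not reported here, although they remain in the counts and medians of their groups. Figures were drawn with matplotlib 3.10.9.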

Additional observations from a re-analysis of the deposited data

Results flagged for a closer look

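Of all genes tested, 14 were called against M2 in opposite directions in the 2 carcinoma-derived lines, with M4 against M3 called too. KRT14, the basal keratin, was the only 1 of them among the named genes and list members. Its log2 fold change against M2 was -3.87 ± 0.35 in M4 (adjusted p = 0.00068, edgeR) and 1.37 in M3 (adjusted p = 0.046), and the difference between M4 and M3 was itself called, at -5.24 (adjusted p = 0.000948). M4 and M3 were both grown without EGF, and their comparisons with M2 share the M2 libraries. The M3 call of KRT14 was not tried under the alternatives.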

How the results depend on the processing

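Of 4230 values of 283 genes under 15 alternatives, 3511 kept the direction and the call, 719 kept the direction and lost the call (510 of these with 1 library left out), and 0 reversed. The alternative with no minimum fold change cannot lose a call, so its values are among the 3511. Of 680 counts over 40 gene lists, 497 stayed within 1.5 times, and 126 of 207 chromosome medians moved by more than the spread between replicates. The 2567 calls (1287 higher, 1280 lower) became 4096 (2050 and 2046) with no minimum fold change, 1310 (704 and 606) at an adjusted p under 0.01, 5503 (3105 and 2398) by a 2-fold rule in both replicate pairs with 0.001 CPM added, and 1614 (843 and 771) with 1 CPM added. With 1 library left out they ran from 927 to 1665, from 438 to 975 higher and from 489 to 690 lower. Fewer samples were fitted then, and the lone library of a line was assumed to vary like the others.

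The 391 genes that are not protein coding became 633 with no filter on low counts, 242 with at least 1 CPM in 2 libraries, 215 with M1 replicate 2 and M2 replicate 1 exchanged, 737 with limma, 90 at an adjusted p under 0.01, 2318 and 123 by the 2-fold rule with 0.001 and 1 CPM added, and 65 to 151 with 1 library left out. Genes of unknown class are among the 391. The cause of these changes in number was not tested. DESeq2 called 3121 genes and size factors in place of TMM 2564.

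With a replicate block, 2462 genes were called, 1230 higher and 1232 lower, and 91.5% of the calls were kept in their direction. The replicate numbers share no stated day, and the correlation of the first replicates' deviations was -0.01 between M2 and M4 and 0.21 between M3 and M4, and the numbers were not taken as pairs. With the block, tried for M4 against M3 after seeing the data, 1756 genes were called there in place of 1897, and 86.5% of the 1897 calls were kept in their direction. Depth limits genes with few counts, such as PDCD4-AS1.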

Other observations

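The share of all genes called between M4 and M2 was 13.9%. Of 19 Notch signalling genes, 2 were higher and 5 were lower in M4 (36.8% called). The ligand DLL1 had 77 and 37 counts in M2 and 0 in both M4 libraries, at least 19.8-fold lower, and HES2, a basic helix-loop-helix repressor, was at 16.2 and 14.7 CPM in M2 and 86.9 and 78.8 CPM in M4. Of 14 S100 proteins, 3 were lower, S100A8, S100A9 and S100A4 (21.4% called). S100A8, a subunit of calprotectin, was at 14.6 and 12.6 CPM in M2 and 0.599 and 0.320 CPM in M4 (log2 fold change -4.87 ± 0.58; adjusted p = 0.00187, edgeR), and its partner S100A9 was lower by 1.74 on the log2 scale. The calls of S100A9 and S100A4 were lost when any 1 of the 4 libraries was left out (adjusted p = 0.106 and 0.0997 without M2 replicate 1) and with M1 replicate 2 and M2 replicate 1 exchanged (adjusted p = 0.145 and 0.0531).

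Of 13 genes of IGF signalling, 3 were higher and 2 were lower (38.5% called). The binding protein IGFBP5 was at 5.54 and 5.56 CPM in M2 and 0.0617 and 0.0256 CPM in M4. Of 15 BMP signalling genes, 3 were higher and 1 was lower (26.7% called), and beside BMP7 the antagonist NOG was higher, at 1.30 and 0.853 CPM in M2 and 6.70 and 6.06 CPM in M4. Of 21 metalloproteinases and inhibitors, 1 was higher and 4 were lower (23.8% called). TIMP1, a secreted inhibitor of metalloproteinases, was at 679.3 and 660.1 CPM in M2 and 160.1 and 209.1 CPM in M4, and it was not called with M1 replicate 2 and M2 replicate 1 exchanged. The calls of DLL1, HES2, S100A8, IGFBP5, BMP7 and NOG held under all 15 alternatives. Without M2 replicate 1 the counts were 2 for Notch signalling, 1 for S100 proteins, 2 for IGF signalling, 2 for BMP signalling and 3 for metalloproteinases and inhibitors. Without M2 replicate 2 they were 3, 1, 2, 2 and 4, without M4 replicate 1 they were 4, 1, 3, 2 and 2, without M4 replicate 2 they were 3, 1, 3, 4 and 6, and with the 2 libraries exchanged they were 7, 2, 4, 3 and 3, in the same order.

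Of 16 NRF2 targets 3 were called, all higher, a share of 18.8% beside 13.9% of all genes. The count was 1 without M2 replicate 1 or M2 replicate 2 and 2 without either M4 library, and the median log2 fold change of 0.32 turned to -0.17 without M4 replicate 2. Of the 16, 1 was higher in M4 replicate 1 than in M4 replicate 2, with a median ratio of 0.602. OSGIN1 was at 3.19 and 3.13 CPM in M2 and 16.5 and 19.6 CPM in M4.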
